A study of Mus musculus with 6 samples.

Results

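Transcripts of the M-current and hyperpolarization-activated channel genes Kcnq3, Kcnq5, Hcn2, Hcn3 and Hcn4 were compared between wild-type (WT) and transgenic (TG) mouse hippocampus. The 5 genes were taken by symbol from 54532 genes for which the authors deposited FPKM, that is fragments per kilobase of gene length, scaled to sequencing depth. All 5 were measured and tested, as were 20952 genes in all, since each had a mean FPKM over the libraries of 0.1 or more. Other genes of both channel families were not analysed here. The TG mice carry the G82R/L85P variant of Slc1a2, which encodes the astrocytic glutamate transporter GLT-1. The variant was placed in exon 3 by CRISPR/Cas9 in C57BL/6N eggs, founders were mated with C57BL/6 mice, and WT littermates served as controls. The labels name no agent for either group, and age, sex and zygosity of the sequenced mice are not given in the sources used here. Hippocampal RNA was sequenced for 3 WT samples (WT1, WT2, WT3) and 3 TG samples (TG1, TG2, TG3), with 16081281 to 18751057 reads on genes per library. Since this is bulk tissue, fewer cells of a type and less RNA per cell cannot be told apart.

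Kcnq channels carry the M-current, a slow potassium current that opens below the firing threshold of neurons and restrains repetitive firing. It needs the membrane lipid PIP2, and muscarinic receptors close it by activating phospholipase C. Hcn channels open upon hyperpolarization, are helped to open by cyclic AMP, and carry the mixed cation current known as Ih, which sets the resting potential and shapes dendritic integration in pyramidal cells. Changes of both currents have been linked to epilepsy, which is the disorder that the Slc1a2 variants were taken from. In the TG mice themselves, however, the paper reports that no spontaneous seizures were seen.

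The Hcn genes are close relatives, and their shared ancestry bears on how well short reads tell them apart. The stretch printed for each is the coding sequence around the glycine-tyrosine-glycine signature of the selectivity filter, shown because it is among the best conserved parts of these proteins. Capitals mark the codons of that signature, with 27 coding bases on either side, written 5′ to 3′ on the coding strand from the GENCODE transcripts of GRCm38.
Hcn2: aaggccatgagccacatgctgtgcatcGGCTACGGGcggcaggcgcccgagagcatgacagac
Hcn3: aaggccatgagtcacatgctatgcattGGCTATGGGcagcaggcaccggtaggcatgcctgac
Hcn4: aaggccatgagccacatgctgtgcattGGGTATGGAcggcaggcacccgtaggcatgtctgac

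These stretches lie within exon 4, at chr10:79728932-79728994 for Hcn2 on the plus strand, chr3:89150979-89151041 for Hcn3 on the minus strand and chr9:58855564-58855626 for Hcn4 on the plus strand. Over these 63 bases, Hcn2 and Hcn3 differed at 12 positions, Hcn2 and Hcn4 at 10, and Hcn3 and Hcn4 at 7. The longest run shared by any pair was 26 bases, between Hcn2 and Hcn4. Across whole transcripts, no 50-base stretch of Kcnq5, Hcn2, Hcn3 or Hcn4 occurred in a transcript of another gene. For Kcnq3, 12 of 14656 such stretches did, none of them in another Kcnq or Hcn gene. Overlapping genes are a separate limit, because the sources used here do not say whether counting used the strand. Hcn3 overlaps Pklr over 711 bases on the other strand, Kcnq3 overlaps the antisense gene Gm27153, and Kcnq5 overlaps 4 genes of which none is annotated as protein-coding, whereas Hcn2 and Hcn4 overlap none.

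No difference in the Kcnq genes was detected between WT and TG hippocampus. Kcnq3 (ENSMUSG00000056258, chromosome 15 from 65986387 to 66286642 in GRCm38), whose product is a subunit of heteromeric M-channels, had an FPKM of 17.4, 17.3 and 14.1 in WT1, WT2 and WT3, against 19.7, 15.7 and 17.4 in TG1, TG2 and TG3. The highest value was in TG1 and the lowest in WT3, and the other 4 libraries lay between 15.7 and 17.4, so the groups overlapped. The means were 16.2 ± 1.86 (WT) and 17.6 ± 1.98 (TG) (SD, n = 3 each). On the log2(FPKM + 0.1) scale, the difference TG minus WT was 0.11 (standard error 0.116; limma, unadjusted p = 0.354, adjusted p = 0.81). Its 95% confidence interval spans folds from 0.897 to 1.31.

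Kcnq5 (ENSMUSG00000028033, chromosome 1 from 21398403 to 21961942), a further M-channel subunit, had an FPKM of 12.8, 12.7 and 11.5 in WT1, WT2 and WT3, against 14.4, 11.1 and 12.2 in TG1, TG2 and TG3. The TG libraries held both the highest value, in TG1, and the lowest, in TG2, with all WT libraries between them. The means were 12.4 ± 0.723 and 12.6 ± 1.69 (SD, n = 3 each), a log2 difference of 0.02 (standard error 0.107; limma, unadjusted p = 0.885, adjusted p = 0.975). The 95% interval spans folds from 0.849 to 1.204. The log2 difference was -0.09 without TG1 and -0.03 without WT3, so its sign rested on either library. Kcnq3 rested on 3882 to 4725 reads per library and Kcnq5 on 1527 to 1824, so counting error alone was at most 1.60% and 2.56% of the value, below the spread within either group.

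**Figure D1:**
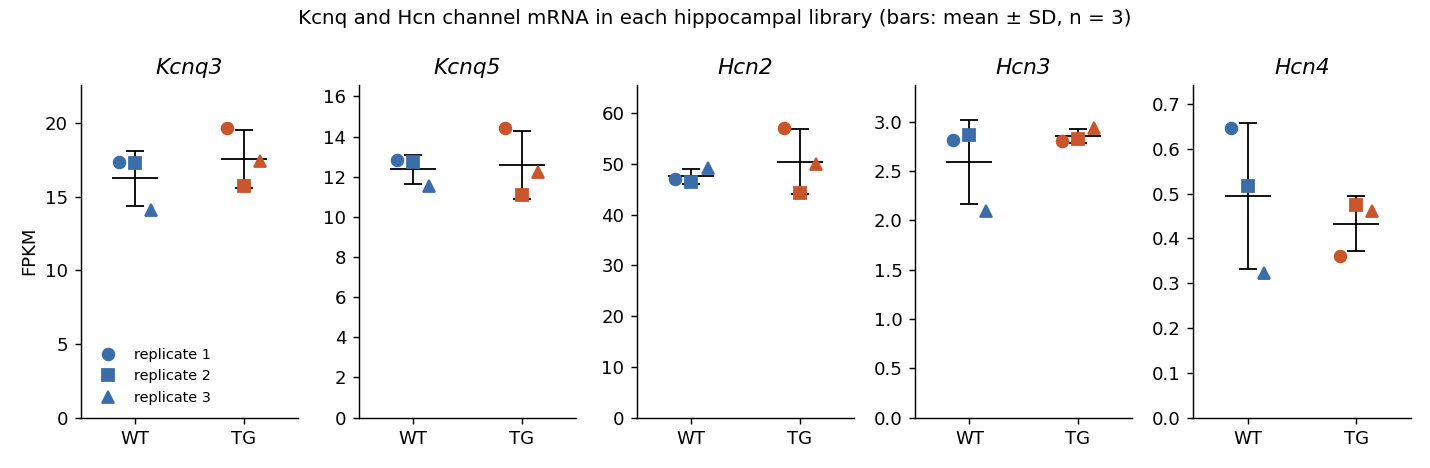
FPKM of each channel gene in each library, with a separate linear axis from 0 for each gene. Points are libraries (blue WT, orange TG, symbols the replicate numbers) and bars the mean ± SD of 3 libraries; in each panel the WT and TG points overlap.

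Hcn2 was the most abundant of the 5 genes. Hcn2 (ENSMUSG00000020331, chromosome 10 from 79716634 to 79736108), which encodes a strongly cAMP-sensitive Ih subunit, had an FPKM of 47.0, 46.4 and 49.3 in WT1, WT2 and WT3, against 57.0, 44.3 and 50.05 in TG1, TG2 and TG3. The WT libraries lay close together, while TG1 was the highest and TG2 the lowest of all. The means were 47.6 ± 1.51 and 50.4 ± 6.37 (SD, n = 3 each), a log2 difference of 0.08 (standard error 0.0981; limma, unadjusted p = 0.455, adjusted p = 0.851) with a 95% interval from 0.899 to 1.24-fold. Without TG1, the log2 difference was -0.01, so its sign rested on that library.

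Hcn3 (ENSMUSG00000028051, chromosome 3 from 89146074 to 89160196), whose product responds little to cAMP, had an FPKM of 2.81, 2.86 and 2.10 in WT1, WT2 and WT3, against 2.80, 2.82 and 2.93 in TG1, TG2 and TG3. Apart from WT3, the libraries lay between 2.80 and 2.93, and all TG libraries exceeded the WT mean, but only TG3 exceeded the highest WT library. The means were 2.59 ± 0.429 and 2.85 ± 0.0717 (SD, n = 3 each), a log2 difference of 0.15 (standard error 0.140; limma, unadjusted p = 0.331, adjusted p = 0.799) with a 95% interval from 0.881 to 1.39-fold. Leaving out WT3 brought this log2 difference to 0.01, and that of Kcnq3 to 0.02.

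Hcn4 (ENSMUSG00000032338, chromosome 9 from 58823412 to 58863175), the subunit known from cardiac pacemaker cells and the thalamus, was the least abundant. Its FPKM was 0.645, 0.516 and 0.323 in WT1, WT2 and WT3, against 0.362, 0.474 and 0.462 in TG1, TG2 and TG3. The WT libraries held both extremes, and the TG libraries lay inside their range. These values rested on 73, 51 and 37 reads in WT1, WT2 and WT3, against 35, 52 and 51 reads in TG1, TG2 and TG3, where counting error alone is 11.7% to 16.9% of the value. The means were 0.495 ± 0.162 and 0.432 ± 0.0617 (SD, n = 3 each), a log2 difference of -0.13 (standard error 0.287; limma, unadjusted p = 0.668, adjusted p = 0.921). The 95% interval runs from 0.573 to 1.46-fold, the widest of the 5 genes. Without WT1 the log2 difference was 0.05.

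Of the 5 genes, 0 reached an adjusted p under 0.05 in limma, against 0.00955% of all genes tested, and 0 reached an unadjusted p under 0.05, against 5.91%. Voom on the recovered reads, also in limma, gave 0 at either threshold. The groups overlapped in all 5, as they did in most genes tested, of which 12.1% had groups that lay apart. The median log2 difference of the 5 genes was 0.08, and that of all genes tested was 0.00 (-0.00197).

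The order of the genes by level per length was the same in every library. Mean FPKM over the 6 libraries was 49.0 for Hcn2, 16.9 for Kcnq3, 12.5 for Kcnq5, 2.72 for Hcn3 and 0.464 for Hcn4. Among the genes tested, these means rank at the 95.5th, 85.5th, 80.8th, 51.4th and 25.3rd percentile. Within a library, Hcn2 exceeded Kcnq3 by 2.69 to 3.496-fold, Kcnq3 exceeded Kcnq5 by 1.22 to 1.42-fold, Kcnq5 exceeded Hcn3 by 3.93 to 5.51-fold, and Hcn3 exceeded Hcn4 by 4.36 to 7.74-fold. Each step held in 6 of 6 libraries, which describes the libraries that the order was read from. The closest neighbours were Kcnq3 and Kcnq5, whose ranges across libraries overlapped although Kcnq3 was higher within each. FPKM depends on the length assigned to each gene, which was 14708 bases for Kcnq3 and 3195 bases for Hcn2. By reads alone, Kcnq3 ranked above Hcn2 in each library.

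The balance between family members was compared as the log2 ratio of FPKM + 0.1 within each library. Kcnq5 over Kcnq3 was -0.43, -0.44 and -0.29 in WT1, WT2 and WT3, against -0.45, -0.50 and -0.51 in TG1, TG2 and TG3. All TG values were lower than all WT values, although WT2 and TG1 nearly met. The groups lay apart in 12.1% of all genes tested, which is a share of single genes, and none was computed for ratios. The difference was -0.10 (two-sided exact permutation test, p = 0.1, the smallest that 3 against 3 allows, and 0.3 after adjustment over 3 ratios). It was -0.05 without WT3. For Hcn3 over Hcn2, the mean ratio was -4.16 ± 0.288 (WT) and -4.09 ± 0.191 (TG) (SD, n = 3 each; exact permutation test, p = 0.7), and the difference of 0.07 became -0.10 without WT3 and -0.01 without TG2. For Hcn4 over Hcn2, it was -6.36 ± 0.456 and -6.57 ± 0.348 (SD, n = 3 each; exact permutation test, p = 0.5), and the difference of -0.21 was -0.01 without TG1, -0.02 without WT1, -0.35 without TG2 and -0.46 without WT3. For both of these ratios the groups overlapped.

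Variation between libraries was shared by several of the genes. Relative to its mean over the 6 libraries on the log2 scale, TG1 stood at 0.22 for Kcnq3, 0.21 for Kcnq5 and 0.22 for Hcn2, the highest library for these 3 genes. TG2 was below the mean for the same genes, at -0.10, -0.16 and -0.14. Hcn3 and Hcn4 did not share this course, with TG1 at 0.05 and -0.26 and TG2 at 0.06 and 0.05. WT3 was the lowest library for Kcnq3, Hcn3 and Hcn4, at -0.25, -0.35 and -0.39, but stood at 0.01 for Hcn2. For Kcnq3, Kcnq5 and Hcn2 the deviation of TG1 was larger than the difference between the group means.

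**Figure D2:**
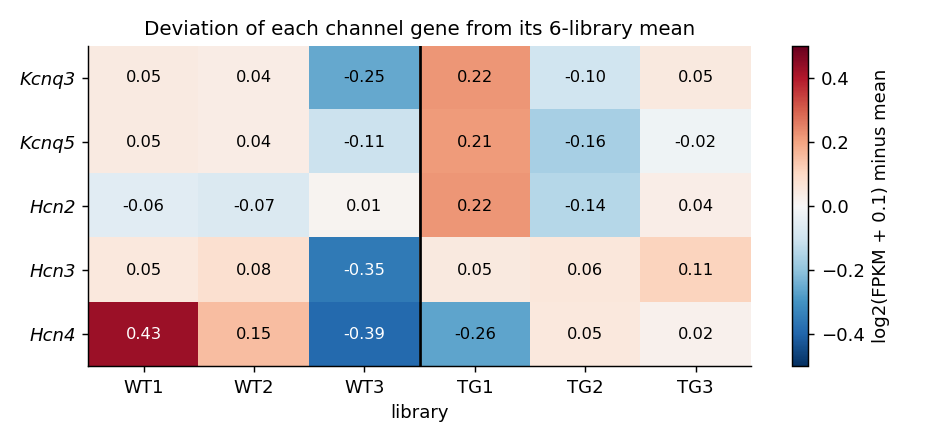
Deviation of each channel gene from its own mean over 6 libraries, in log2(FPKM + 0.1), with rows for genes, columns for libraries and a line between WT and TG. TG1 is high for Kcnq3, Kcnq5 and Hcn2, and WT3 is low for Kcnq3, Hcn3 and Hcn4, with no row that separates WT from TG.

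The genes with the most similar course over the 6 libraries were found by Pearson's r of log2(FPKM + 0.1) among 11913 protein-coding genes whose mean FPKM was 1 or more. For Kcnq3 these were Prmt5 (r = 0.9998) and L1cam (r = 0.9994). For Kcnq5 they were Foxp4 (r = 0.993) and Map7d1 (r = 0.991), for Hcn2 Ctnnbl1 (r = 0.996) and Strn3 (r = 0.988), for Hcn3 Klf12 (r = 0.999) and Haus4 (r = 0.996), and for Hcn4 Elac2 (r = 0.973) and Taf1a (r = 0.971). L1cam, a neuronal adhesion molecule, had an FPKM of 13.9, 13.5 and 9.81 in WT1, WT2 and WT3, against 16.6, 11.8 and 13.7 in TG1, TG2 and TG3. The rise in TG1 and dip in WT3, as in Kcnq3, follow from its choice by r. With 6 points that share library and depth, high values of r are common, and 638 genes had r above 0.9 with Kcnq3 and 36 with Hcn4.

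Genes that control the M-current were read from a list of 18 genes, all of which were tested. Of these, 0 were higher and 0 lower at an unadjusted or an adjusted p under 0.05 in limma, and 0 at the unadjusted threshold by voom on the recovered reads (smallest unadjusted p in the FPKM test, 0.135), where 3.13% of all genes tested were higher and 2.78% lower at the unadjusted threshold. Their median log2 difference was 0.05, with values from -0.23 to 0.24, and it was 0.01 without either WT3 or TG1 and 0.12 without either WT2 or TG2. Among receptors and G proteins, Chrm1, the muscarinic receptor best known for closing the M-current, had an FPKM of 36.3, 41.7 and 33.7 in WT1, WT2 and WT3, against 43.0, 36.6 and 37.9 in TG1, TG2 and TG3. Gna11, a G protein of the Gq class that couples such receptors to phospholipase C, had the smallest p of the list. Its FPKM was 42.6, 41.8 and 36.5 in WT1, WT2 and WT3, against 48.0, 42.9 and 42.6 in TG1, TG2 and TG3, where WT1 and TG3 nearly met, and its log2 difference was 0.15 (standard error 0.0865; limma, adjusted p = 0.789). Gna11 was the only gene of the 18 whose groups lay apart, against 12.1% of all genes tested.

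The 4 genes of PIP2 supply and breakdown had log2 differences from 0.00 (-0.000937 for Plcb1, a phospholipase C) to 0.20 (Pi4ka, the kinase for the first step of PIP2 synthesis). Among calmodulins, anchors and turnover proteins, Calm2, a calmodulin gene whose protein binds the tail of Kcnq channels, was the most abundant. Its FPKM was 993, 955 and 1263 in WT1, WT2 and WT3, against 803, 936 and 979 in TG1, TG2 and TG3, a log2 difference of -0.23 (standard error 0.158; limma, unadjusted p = 0.18, adjusted p = 0.789). WT3 was the highest and TG1 the lowest, and the remaining libraries lay between 936 and 993. Ank3, whose product ankyrin-G holds Kcnq channels at the axon initial segment, had an FPKM of 11.02, 11.6 and 7.11 in WT1, WT2 and WT3, against 12.7, 10.1 and 11.8 in TG1, TG2 and TG3, again highest in TG1 and lowest in WT3.

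**Figure D3:**
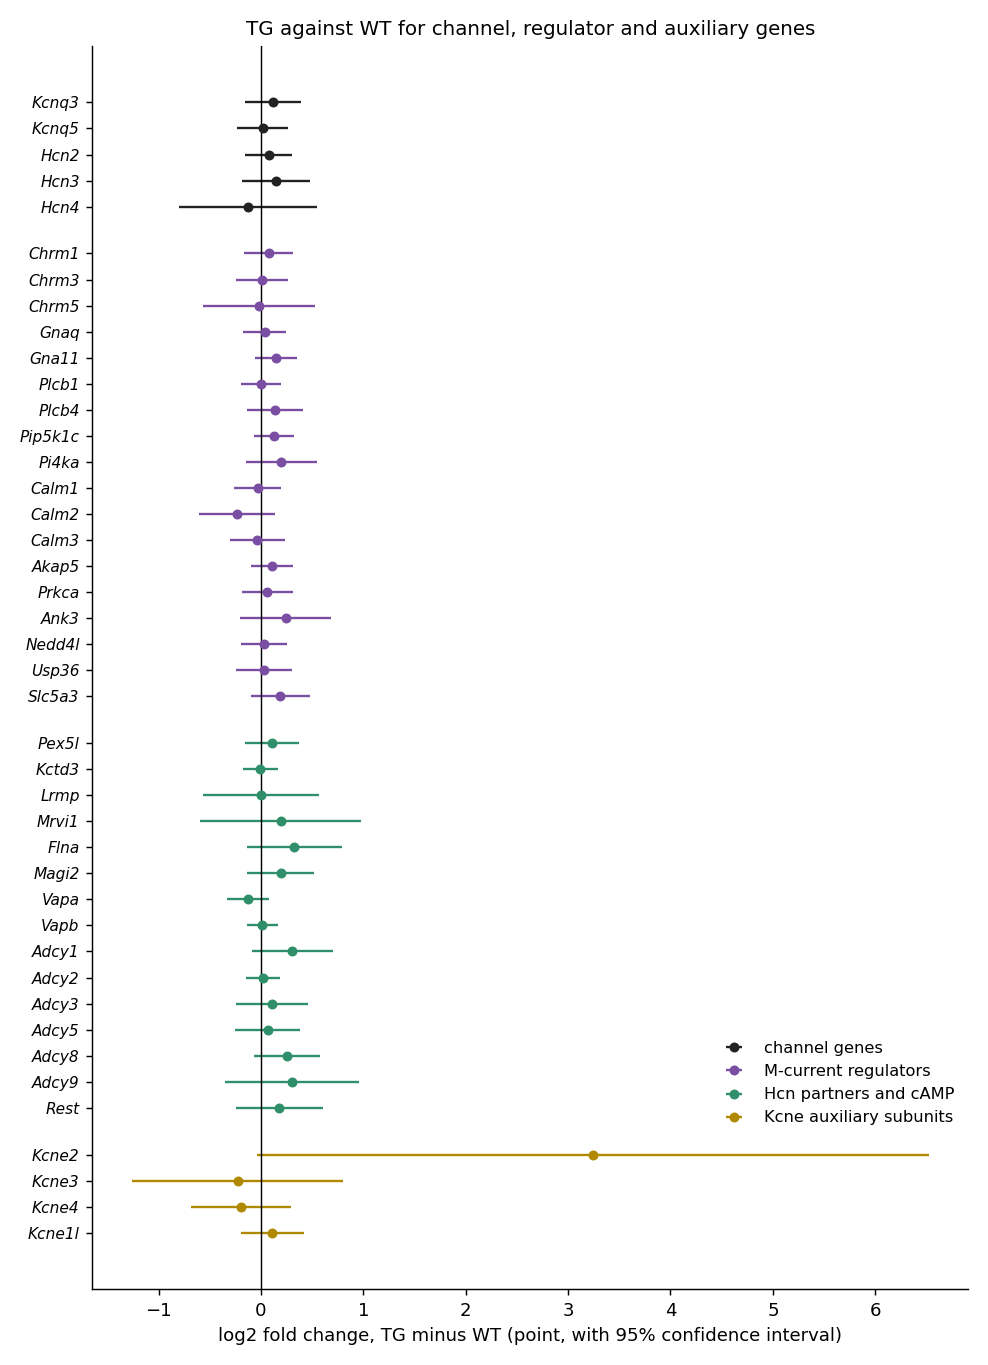
Log2 fold change TG minus WT for the 5 channel genes and for the genes tested of the 3 lists on their regulation, with one gene per row, points for the estimate and lines for the 95% confidence interval from limma. Every interval includes 0, and that of Kcne2 is by far the widest.

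Partners of Hcn channels and the enzymes that make cAMP were read from a list of 15 genes, all of which were tested. Here too, 0 were higher and 0 lower at an unadjusted or an adjusted p under 0.05 in limma (smallest unadjusted p = 0.103), and 0 at the unadjusted threshold by voom. In the FPKM test, 3.13% of all genes tested were higher and 2.78% lower at the unadjusted threshold. Among the alternatives, Adcy8, Adcy1 or Flna, which encodes the actin crosslinker filamin A, had an unadjusted p under 0.05 in 4, with 1 gene each, so 0 or 1 of 15 passed. The median log2 difference was 0.11, with values from -0.13 to 0.33, and it was 0.03 without TG1, 0.04 without WT3 and 0.19 without either WT1 or TG2. Pex5l, which encodes the auxiliary subunit TRIP8b that controls Hcn trafficking, had an FPKM of 22.1, 23.6 and 18.7 in WT1, WT2 and WT3, against 25.2, 20.53 and 23.5 in TG1, TG2 and TG3, with overlapping groups. Vapa, an endoplasmic reticulum membrane protein that binds Hcn channels, had an FPKM of 31.6, 31.9 and 38.4 in WT1, WT2 and WT3, against 30.8, 31.5 and 30.6 in TG1, TG2 and TG3. Its groups lay apart although WT1 and TG2 nearly met, and the log2 difference was -0.13 (limma, unadjusted p = 0.193).

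The 6 adenylyl cyclase genes of this list all had log2 differences above 0, from 0.02 to 0.31. Other adenylyl cyclase genes were not analysed here, and the share of all genes tested above 0 was not computed. Their median log2 deviation from the WT mean was 0.12, 0.08 and -0.21 in WT1, WT2 and WT3. In TG1, TG2 and TG3 it was 0.34, -7.79e-05 and 0.19, so TG2 lay within the WT range. Adcy1, a calcium-stimulated cyclase with the highest FPKM here, had an FPKM of 115, 138 and 84.9 in WT1, WT2 and WT3, against 140, 126 and 144 in TG1, TG2 and TG3, so WT2 lay within the TG range. Its log2 difference was 0.31 (standard error 0.169; limma, unadjusted p = 0.11, adjusted p = 0.789). Adcy8, the other calcium-stimulated cyclase, had an FPKM of 2.49, 2.79 and 2.94 in WT1, WT2 and WT3, against 2.98, 3.03 and 3.89 in TG1, TG2 and TG3. Its groups lay apart, with WT3 and TG1 close together and TG3 the highest, and a log2 difference of 0.25 (standard error 0.136; limma, adjusted p = 0.789), or 0.13 without TG3. In all, 2 of the 15 genes, Vapa and Adcy8, had groups that lay apart, against 12.1% of all genes tested.

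The single-pass Kcne subunits can assemble with Kcnq or Hcn channels. Of the 5 Kcne genes, 4 were tested, with a median log2 difference of -0.04. Among these 4, 0 had an unadjusted p under 0.05 in limma, against 5.91% of all genes tested. Kcne1 was left out by the filter, with 1 read in TG2 and 0 in the other libraries. Kcne2 had the smallest p, with an FPKM of 0.306, 0.105 and 0.0302 in WT1, WT2 and WT3, against 3.43, 13.4 and 0.0940 in TG1, TG2 and TG3. It was high in TG1 and TG2, while TG3 lay within the WT range, and Kcne1l and Kcne4 exceeded it in the WT libraries and TG3 (log2 difference 3.24, standard error 1.40; limma, unadjusted p = 0.0519, adjusted p = 0.786). With TG1 and TG2 left out, which leaves TG3 alone as the TG group, the log2 difference was -0.19, and without TG3 it was 4.96 (unadjusted p = 0.000226, adjusted p = 0.126). It had an unadjusted p of 0.0186 in the fit with the replicate block, 0.0319 among protein-coding genes and 0.0484 after the length and GC correction. Kcne2 is known from the choroid plexus, the secretory epithelium of the brain ventricles. The other tested genes of this list, Kcne3, Kcne4 and Kcne1l, had log2 differences of -0.23, -0.20 and 0.11.

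The labelled tissue and the presence of other cells were checked on markers. The 12 markers of hippocampal glutamatergic neurons were detected in every library, with a summed FPKM of 634 to 691 in WT mice and 636 to 713 in TG mice. The most abundant was Slc17a7, a vesicular glutamate transporter, at 274 ± 31.9 and 292 ± 26.4 (SD, n = 3 each). Tdo2 of this list had an unadjusted p of 0.0379 (log2 difference -0.45; limma, adjusted p = 0.786). The 8 interneuron markers, which include Sst as the most abundant and Lhx6 with the smallest p, summed to 431 to 564 in WT mice and 438 to 512 in TG mice.

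The 12 choroid plexus markers summed to 57.7 to 85.6 FPKM in the WT libraries, 1215 in TG1, 3829 in TG2 and 68.6 in TG3, with Ttr as the most abundant. At an unadjusted p under 0.05, where 3.13% of all genes tested were higher, 7 of the 12 were (Ttr, Kl, Aqp1, Slc4a5, Kcnj13, Slc13a4 and Tmem72), Kcnj13 with the smallest p (0.0138), and 0 had an adjusted p under 0.05 in limma. In the channel genes, the log2 deviations of TG1 and TG2, the libraries rich in these markers, were 0.22 and -0.10 for Kcnq3, 0.21 and -0.16 for Kcnq5, 0.22 and -0.14 for Hcn2, 0.05 and 0.06 for Hcn3, and -0.26 and 0.05 for Hcn4. With TG1 and TG2 left out, the log2 differences were 0.11 for Kcnq3, -0.02 for Kcnq5, 0.07 for Hcn2, 0.19 for Hcn3 and -0.04 for Hcn4. These are values of TG3 alone against 3 WT libraries, with no spread within the TG group.

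Markers of other cells and regions were compared likewise. The 10 oligodendrocyte markers summed to 667 to 835 FPKM in WT mice and to 518, 715 and 767 in TG1, TG2 and TG3, and Mbp was the most abundant. The sum was lowest in TG1, where Hcn2 was highest, but in TG2, where Hcn2 was lowest, it lay within the WT range. All 10 had log2 differences below 0 (median -0.30), with 1, Opalin, lower at an unadjusted p under 0.05 (0.00983), as were 2.78% of all genes tested. The 12 markers of thalamus and habenula, where Hcn4 is abundant, summed to 19.99 to 26.6 in WT mice and 22.6 to 27.5 in TG mice. The sums were 26.6, 19.99 and 21.4 for WT1, WT2 and WT3, against 23.5, 22.6 and 27.5 for TG1, TG2 and TG3. TG3 had the highest sum with an intermediate Hcn4, and WT1 the next with the highest Hcn4. The order of these libraries depended on the measure. By the median log2 deviation of the 12 markers from their WT mean, WT1 was highest (0.24) and TG3 next (0.20). Of these 12, 0 had an unadjusted p under 0.05 in limma, against 5.91% of all genes tested. Rora had the smallest (limma, unadjusted p = 0.0922) and Prkcd the highest mean FPKM over the 6 libraries. The 6 markers of vascular smooth muscle summed to 24.4 to 49.8 and 22.3 to 51.4, with overlapping groups, Myl9 as the most abundant and Des with the smallest p (0.249). The part of these cell types in the values of the channel genes was not tested.

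**Figure D4:**
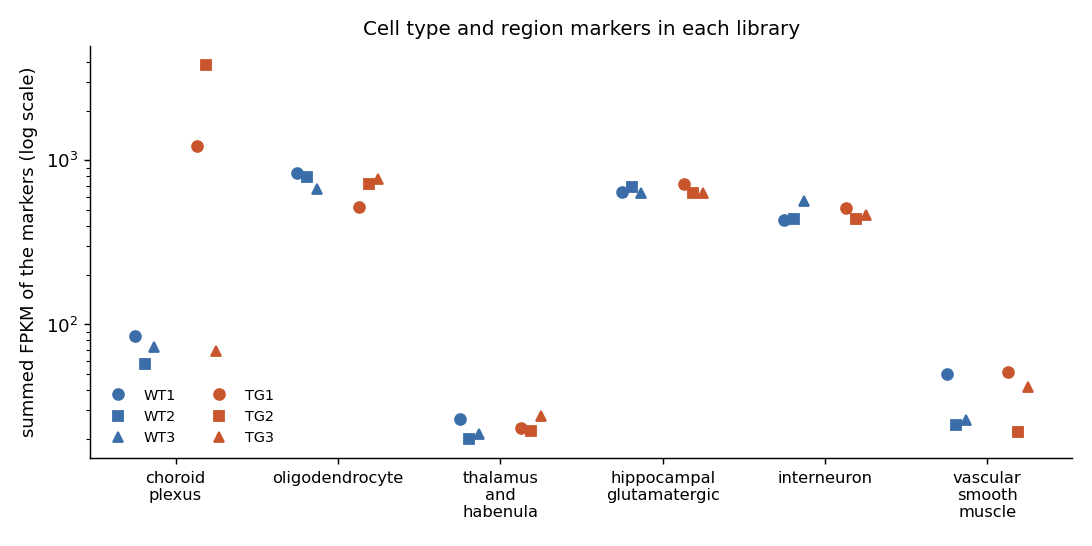
Summed FPKM of 6 marker lists in each library on a log axis, with blue for WT, orange for TG and symbols for the replicate numbers. Only the choroid plexus list differs by more than 10-fold between libraries, at 1215 in TG1 and 3829 in TG2 against at most 85.6 in the others.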

How the data were processed

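Hippocampal RNA of 3 WT and 3 TG samples was sequenced, and the authors deposited FPKM, computed from HTSeq read counts and gene length, with 1 column per library. The aligner is not given in the sources used here. The submitters' processing notes name GRCm38 and mm10, and 53585 of 54532 genes had the same start and end in the GENCODE annotation of GRCm38. Trizol and NEBNext are named in the methods, but RNeasy and SMARTer kits in the labels. Multiplied by gene length, 100% of the values were whole reads (tolerance 0.05 reads). Within each group, no libraries were copies of each other.

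The test was limma 3.58.1 (R 4.3.3) on log2(FPKM + 0.1) for genes whose mean FPKM was 0.1 or more, with lmFit and trended eBayes, no covariate, Benjamini-Hochberg adjustment over all 20952 genes and a threshold of 0.05. This scale understates changes of low genes. The code was also run on simulated data, with larger changes than those of the channel genes and no variation shared between genes. That run cannot show how well changes as small as theirs are detected. Ratios were tested by exact permutation. The rule for names took the channel genes, the genes with the smallest p, the highest FPKM or an unadjusted p under 0.05 in each list, and the 2 genes most like each channel gene. Chrm1, Ank3, Pex5l, Vapa, Pi4ka, Plcb1, Flna and the Kcne genes other than Kcne2 were added after their values were seen. The channel genes and the lists were chosen with earlier results of these data known. The labels number the mice but name no litter or day, so p-values measure the spread between these 6 samples. Alternatives varied the pseudocount, filter, variance model, scaling, input, gene type, pairing and libraries. Some sequences are not reported here.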

Additional observations from a re-analysis of the deposited data

How the results depend on the processing

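None of the 5 channel genes reached an unadjusted or adjusted p under 0.05 in any of 19 alternatives (18 for Hcn4, which a filter at a mean FPKM of 1 removes). Few genes of any kind passed. Without WT3, 440 genes were higher and 418 lower of 21037 tested at the unadjusted threshold, and by voom 768 and 485 of 20952. So 0 of 5 says little about these genes in particular. Kcnq3 and Hcn3 kept their direction in all 19. The filters, the fit without a variance trend, protein-coding genes alone and the replicate block cannot change their log2 differences, however. The length and GC correction, chosen after seeing the data, brought the log2 differences to 0.03 for Kcnq3, 0.02 for Hcn2 and 0.08 for Hcn3. Library weights brought that of Kcnq3 to 0.04 and that of Hcn3 to 0.08. The log2 difference of Kcnq5 turned to -0.037 with library weights, -0.015 without TG1 and TG2, and -0.051 after the length and GC correction; the causes were not tested. Leaving out each library in turn gave log2 differences from -0.086 (without TG1) to 0.10 for Kcnq5, -0.015 (without TG1) to 0.17 for Hcn2, -0.35 to 0.054 (without WT1) for Hcn4, and -0.097 (without WT3) to 0.17 for the ratio of Hcn3 over Hcn2. By reads not divided by length, 3 of the 4 steps in the order of levels held in every library. The median of the M-current regulators was -0.0056 after the length and GC correction. The median of the Kcne genes was 0.022 with a pseudocount of 1, 0.077 without a filter, where Kcne1 with its 1 read joins the other 4 and is itself the median, and 1.68 at a minimum mean FPKM of 1, where fewer genes were tested, and ran from -0.093 (without TG1) to 0.082 (without TG2) leaving out each library, turning also without WT1 (0.015).

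The groups share replicate numbers. The correlation of same-numbered libraries' deviations was 0.00314 to 0.0434, against -0.0274 to 0.0159 for libraries of unlike number. Of the 3 WT libraries, 2 correlated best with their own number. With so few libraries, these values cannot tell whether the numbers pair the mice. The replicate block cannot change a log2 difference, because each number holds a WT and a TG library, so only the p-values can differ. With it, Kcnq3 had an unadjusted p of 0.327 in limma, and 0 of 5 channel genes passed. Over all genes tested, 634 were higher and 610 lower at an unadjusted p under 0.05, against 656 and 582 without the block. Counting error is largest for Hcn4, at 35 to 73 reads per library.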
